A study of Danio rerio with 6 samples.

Results

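The Notch pathway genes rbpja, notch1a, notch1b, notch3, dll4, dlc, jag1a, hey1, hey2 and efnb2a were followed in mRNA sequencing libraries of zebrafish tails. They were taken by name from a table of 25745 genes, and all 10 were found, each under 1 identifier. The tails came from embryos of strain AB at 28 hours after fertilisation, in 3 libraries of wild-type embryos (WT) and 3 of sih mutants. The silent heart (sih) locus holds tnnt2a, which encodes cardiac troponin T. Hearts of sih embryos do not beat, so their tails develop without blood flow. The labels do not say how many embryos went into a library or whether libraries came from separate clutches, so the p-values measure spread between samples that may be technical only. The comparison of genotypes addresses which of these transcripts differ in tails that lack circulation.

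Notch receptors are single-pass membrane proteins that are cut when a Delta or Jagged ligand on a neighbouring cell binds them. The freed intracellular part enters the nucleus and joins the DNA-binding protein Rbpj, which then switches on target genes such as those of the Hey and Her repressor families. In the trunk and tail vessels of zebrafish, the pathway is known for setting arterial against venous fate. The gridlock gene hey2 and the ephrin gene efnb2a are markers of arteries, and the receptor ephb4a is a marker of veins. Most of these genes are not limited to vessels: Delta and Notch genes are also transcribed in the neural tube and dlc in the presomitic mesoderm. In whole tails, fewer cells of a type and less RNA per cell cannot be told apart.

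The libraries held between 21240839 and 27222955 reads assigned to genes. Levels are the authors' normalised read counts, and a change is a difference of log2(value + 1), sih minus WT. Changes were fitted across all genes with limma and adjusted by Benjamini-Hochberg. The SEs and intervals are limma's moderated ones, in which the variance of a gene is drawn toward that of genes of like level. They are therefore not the spread of that gene's own libraries alone. WT and sih libraries that carry the same number varied together, at correlations between 0.852 and 0.932 of their deviations from the genotype means. Changes are therefore given from a fit that blocks on that number (the paired fit), and calls from the fit without it are given beside them. The fit without the block was planned as the main test and the paired fit as an alternative. Over the members, the SE without the block was 1.88 to 7.43 times that of the paired fit. Both libraries of replicate 1 stood apart from the other 4, and the paired changes without that pair are given beside the results. For the mutated gene, tnnt2a, the WT libraries held 0, 9 and 4 reads and the sih libraries 0, 0 and 3. Tails give too few of its reads for a check of the genotype labels. Without the block, limma called 0 of 22813 genes at an adjusted p under 0.05 (0% of those tested, with 235, or 1.03%, at an unadjusted p under 0.05). edgeR and limma-voom also called 0 without the block, and DESeq2 called 48. In the paired fit 4.84% of all genes were called, 2.77% as higher and 2.07% as lower in sih, and 18.8% had an unadjusted p under 0.05.

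Of the 10 members, rbpja was called in the paired fit, as lower in sih, and the other 9 were not called in either direction. Without the block 0 of 10 were called by limma, edgeR, DESeq2 or limma-voom, and 0 had an unadjusted p under 0.05 in limma. The 1 call among 10 stands beside 4.84% of all genes, and nothing about the members as a group is read from it. 9 of the 10 members held at least 50 reads in every library, and notch1a was the exception. The plot of the members by library shows all 60 values.

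**Figure D1:**
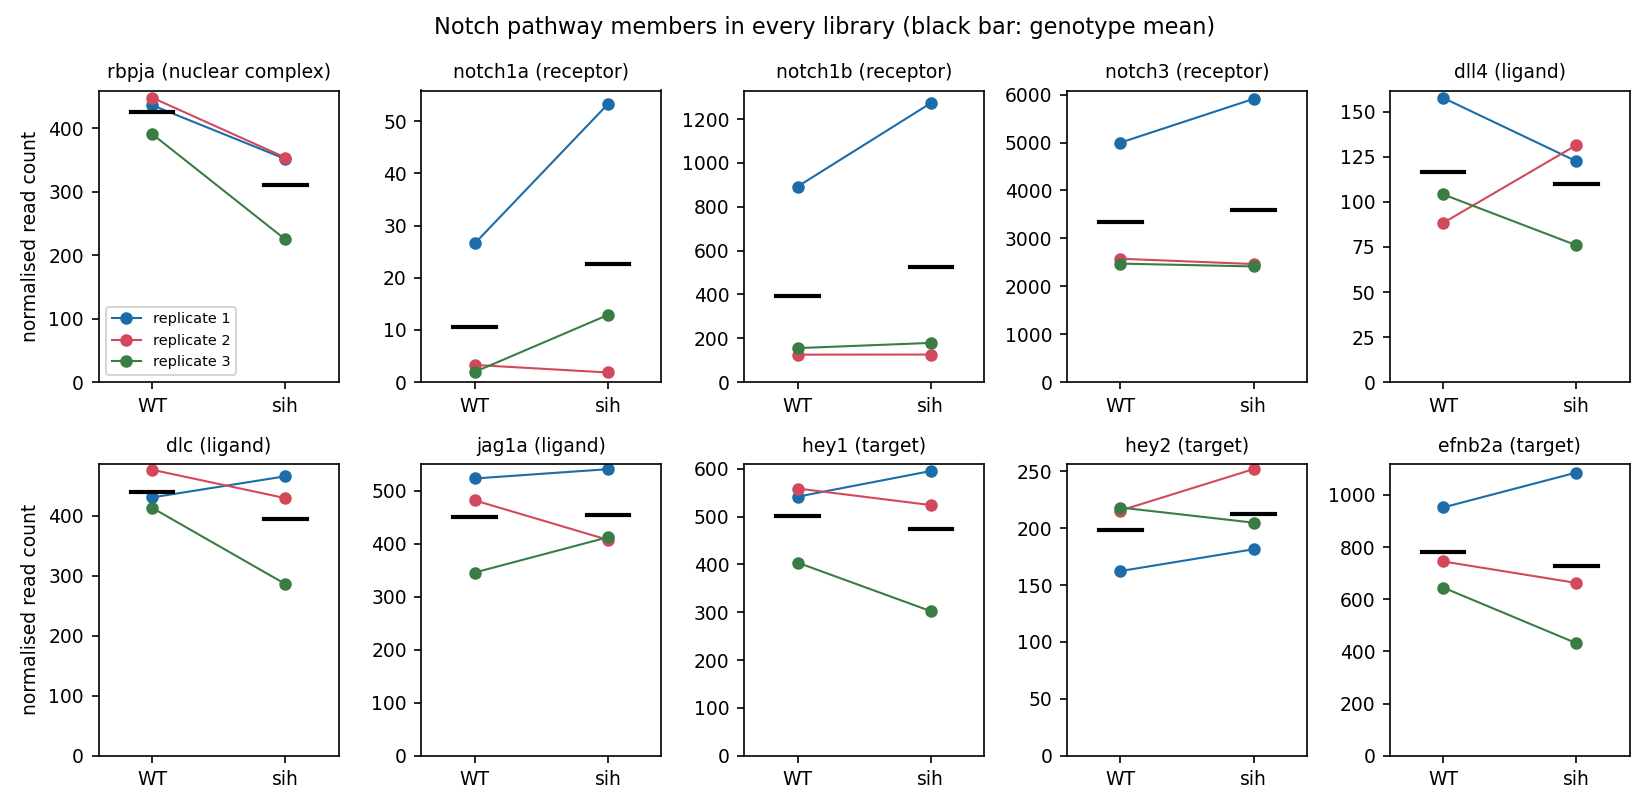
Normalised read counts (linear axes from 0) of the 10 members in the 6 libraries, with lines that join libraries of the same number and black bars at the genotype means of 3 libraries. rbpja is the member whose WT libraries (391 to 448) all lie above the sih libraries (225 to 354), and notch1b is high in both libraries of replicate 1.

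rbpja (ENSDARG00000003398) encodes the DNA-binding partner on which the receptors converge. It stood at 436, 448 and 391 normalised counts in WT replicates 1, 2 and 3. In sih replicates 1, 2 and 3 it stood at 352, 354 and 225. Every sih library was below every WT library, and rbpja was the 1 member whose genotypes did not overlap. Among all genes 4.22% did not overlap, 2.12% with sih lower and 2.10% with sih higher. The mean went from 425 ± 30.2 (SD, n = 3) to 310.1 ± 73.8. The change was -0.48 ± 0.12 (SE) on the log2 scale, 0.716 of the WT level, with a 95% interval from -0.74 to -0.22 and an adjusted p = 0.0285 in the paired limma fit. Without the block the same change had an SE of 0.28, an interval from -1.11 to 0.15 and an adjusted p = 0.999992.

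The fall of rbpja was not of 1 size in the 3 pairs. The log2 ratios were -0.31, -0.34 and -0.80 in pairs 1, 2 and 3, and the steepest came from the lowest value of all, that of sih replicate 3. That library held 157 rbpja reads, against 398 in WT replicate 3. An exact binomial interval on the reads, which covers counting error only, ran from -1.07 to -0.53 in pair 3. In pair 1 it ran from -0.52 to -0.10 and in pair 2 from -0.53 to -0.15, so it lay below 0 in each. Leaving out pair 3 gave a paired limma change of -0.33 that was not called (adjusted p = 0.319), and leaving out pair 1 gave -0.57 (adjusted p = 0.00323). With a pseudocount of 0.1 in place of 1 it was not called either (adjusted p = 0.0768).

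The paralog rbpjb had few reads, with 34.8, 35.5 and 39.3 normalised counts in WT and 30.6, 37.1 and 21.5 in sih. Its paired change was -0.32 with a 95% interval from -0.90 to 0.26, and its libraries overlapped. Over the 6 libraries, the genes most like rbpja in log2(value + 1) were cept1a, phkg1a and htatsf1, with Pearson correlations of 0.995, 0.988 and 0.987, the highest of 13247 genes whose mean reached 50. These values describe 6 shared libraries and carry no test. In the paired limma fit cept1a, phkg1a and htatsf1 were not called (adjusted p = 0.143, 0.0859 and 0.193). In cept1a, an enzyme gene of phospholipid synthesis, the WT libraries stood at 106, 107 and 87.5 and the sih libraries at 81.7, 84.3 and 50.1. Like rbpja, cept1a, phkg1a and htatsf1 each had their lowest value in sih replicate 3. They were picked for likeness over these same libraries, so nothing is read from that. Over the 3 pair ratios the closest of 1050 other called genes whose mean reached 50 were KPNA6, rangap1 and pcmtd1. Their correlations were 0.999987, 0.999979 and 0.999762 over 3 points. With so few points and so many genes, values near these are easily reached, and they carry no test. pcmtd1 was higher in sih, by 0.65, and its ratio was smallest in pair 3.

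The 3 receptors among the members did not pass the genotype test in either fit. notch1b (ENSDARG00000052094) stood at 892, 125 and 155 normalised counts in WT replicates 1, 2 and 3. In the sih replicates it stood at 1273, 126 and 179. Replicate 1 was far above the rest in both genotypes, by more on the log2 scale than the genotypes differed within any pair. The log2 ratios of sih over WT were 0.51, 0.01 and 0.20. Exact intervals on the reads ran from 0.39 to 0.64 in pair 1, -0.34 to 0.35 in pair 2 and -0.14 to 0.55 in pair 3. The paired change was 0.24 ± 0.13 (95% interval -0.03 to 0.51, adjusted p = 0.334 in the paired limma fit). Without pair 1 it was 0.10 (adjusted p = 0.854 in the same limma fit). It was 1 of the 2 members whose ratio had the same sign in all 3 pairs, rbpja being the other. For all genes that share was 38.4%.

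notch3 (ENSDARG00000052139), the receptor gene also known from mural cells and the neural tube, stood at 4998, 2576 and 2474 in WT. It stood at 5912, 2465 and 2415 in sih. Here too replicate 1 was the high pair, and the sih values ran below and above those of WT. Its paired change was 0.05 ± 0.08, and the interval from -0.13 to 0.22 is among the narrowest of the members. notch1a is listed under ENSDARG00000096282, an identifier that the reference table of names does not hold. It had 29, 4 and 2 reads in WT and 47, 2 and 9 reads in sih. With so few reads its paired change of 0.87 had an interval from -0.15 to 1.89 and was not called. Without pair 2 it was called as higher (1.60, adjusted p = 0.0184), a call that rests on 2 pairs with 2 and 9 reads in the second of them. notch2, the remaining receptor gene of the pathway list, was at 2081, 953 and 758 in WT and 2424, 813 and 774 in sih, with a paired change of 0.01 ± 0.10.

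The ligands differed between pairs more than between genotypes. dll4 (ENSDARG00000070425), the Delta ligand of arterial and sprouting endothelium, stood at 158, 88.3 and 104 in WT. It stood at 123, 132 and 75.9 in sih. Pairs 1 and 3 were lower in sih and pair 2 was higher, with log2 ratios of -0.36, 0.57 and -0.45. In pair 2 the 107 WT reads and 142 sih reads gave an exact interval from 0.20 to 0.95, and in pair 1 the 172 and 108 reads gave -0.73 to -0.01. The pairs therefore disagreed by more than counting error. The paired change was -0.08 ± 0.20, with an interval from -0.49 to 0.33.

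dlc (ENSDARG00000002336), a Delta ligand of arteries and of the segmentation clock, stood at 431, 477 and 414 in WT and at 466, 429.8 and 287 in sih. The first 2 sih libraries lay within the WT range and the third below it. The paired change was -0.19 ± 0.12 (interval -0.45 to 0.07, adjusted p = 0.446). jag1a (ENSDARG00000030289), a Jagged ligand, stood at 524, 482 and 346 in WT and at 541, 408 and 413 in sih. Its mean was 451 ± 92.9 in WT and 454 ± 75.7 in sih. The paired change of jag1a was 0.02 ± 0.12, with a 95% interval from -0.22 to 0.26. Its pairs disagreed by more than counting error. The exact interval on the reads ran from -0.42 to -0.06 in pair 2 and from 0.02 to 0.48 in pair 3.

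Among the other ligand genes of the list, none of 6 passed. Of those with a mean of at least 50, jag2b had the highest value, 0.23 ± 0.09 (adjusted p = 0.186), and jag1b the lowest, -0.06 ± 0.11. The Delta genes dla, dlb and dld, known from neurogenesis, were at 0.10 ± 0.09, 0.03 ± 0.08 and 0.05 ± 0.09. jag2a had few reads and a change of 0.28 ± 0.45.

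The 3 targets were not called. hey1 (ENSDARG00000070538), a Hey repressor, stood at 542, 559 and 404 in WT and at 596, 524 and 302 in sih. The log2 ratios were 0.14, -0.09 and -0.42, and the paired change was -0.12 ± 0.12 (interval -0.37 to 0.12). hey2 (ENSDARG00000013441), the gridlock gene required in zebrafish for the aorta, stood at 162, 215 and 218 in WT and at 182, 252 and 205 in sih. Its paired change was 0.10 ± 0.14, with an interval from -0.19 to 0.38. Its paralog heyl was at 0.09 ± 0.27.

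efnb2a (ENSDARG00000020164), the arterial ephrin ligand, stood at 952, 745 and 645 in WT and at 1086, 662 and 431 in sih. The sih library was above its WT partner in pair 1 and below it in pairs 2 and 3, with log2 ratios of 0.19, -0.17 and -0.58. In each pair the exact interval left out 0, from 0.06 to 0.32 in pair 1 and from -0.78 to -0.38 in pair 3. The paired change over all 3 was -0.19 ± 0.12 (interval -0.44 to 0.06, adjusted p = 0.434). Without pair 1 it was -0.37 and was called (adjusted p = 0.0431), and without pair 3 it was 0.01 (adjusted p = 0.988). efnb2b, the other efnb2 gene, was at 0.11 ± 0.24.

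The remaining members were not called when pair 1 was left out of the paired fit. notch1a was then at 0.82, notch3 at -0.049, dll4 at 0.059 and dlc at -0.34. jag1a was at 0.0057, hey1 at -0.25 and hey2 at 0.067. The signs of notch3 and dll4 turned, and the others kept theirs. Over the 10 members, the exact interval on the reads left out 0 in 6 members in pair 1, 4 in pair 2 and 6 in pair 3.

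**Figure D2:**
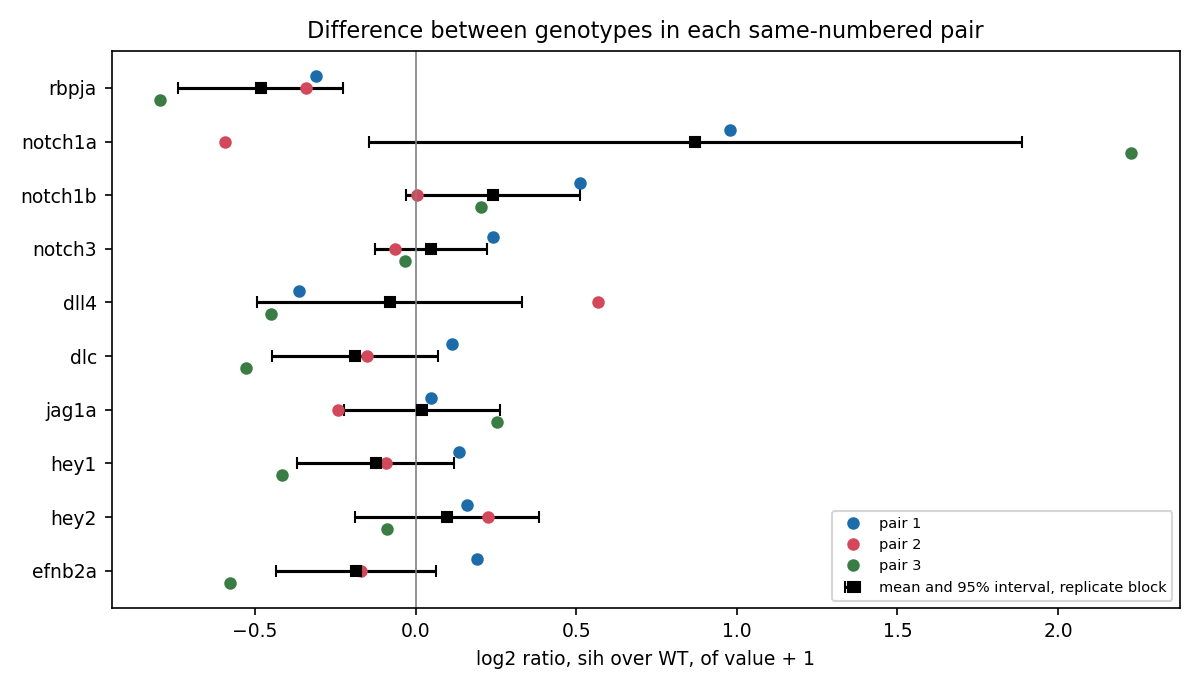
Log2 ratio of sih over WT (value + 1) for each member in pairs 1, 2 and 3 (coloured points). Black squares and bars give the mean over pairs and its 95% interval from the paired limma fit. The interval uses a variance moderated across genes, so it does not measure the spread of the coloured points alone. The interval of rbpja, -0.74 to -0.22, is the one that lies wholly below 0, and the points of pair 3 lie at -0.42 or below for rbpja, dll4, dlc, hey1 and efnb2a.

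Several members were low in the same library. sih replicate 3 held the lowest of the 6 values in 6 of the 10 members, rbpja, dll4, dlc, hey1, efnb2a and notch3. That was the case for 22.4% of all genes and for 16 of the 69 other genes of the pathway list. In pair 1 the sih library was above WT in 8 of 10 members, against 53.1% of all genes, and in pair 3 in 3 of 10, against 45.9%. The median log2 ratio over the members was 0.15, -0.12 and -0.25 in pairs 1, 2 and 3, and over all genes 0.04, 0.00 and -0.02. The median change of the members was -0.03, beside 0.00 for all genes tested. 1 read was worth most normalised counts in sih replicate 3, at 1.43, against 0.826 in WT replicate 2. sih replicate 3 also had the fewest genes above 0, 21350 against 22450 to 23203 in the other libraries. It held 21482799 reads in genes, and sih replicate 1 alone held fewer, 21240839. The summed pan-endothelial list was at 3481 normalised counts in sih replicate 3 and 3191 in WT replicate 3. The median log2 ratio of its genes in pair 3 was 0.15. For the arterial list the medians were 0.21, 0.02 and -0.21 in pairs 1, 2 and 3, although its sum was 4030 in sih replicate 3 and 3572 in WT replicate 3. The venous list had a median of -0.19 in pair 3, with sums of 6558 in sih and 7498 in WT. The part of any cell type, or of depth, in these values was not tested.

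The wider pathway was represented by 79 of 95 listed genes, all of them tested, and 69 of these were not members. In the paired fit 1 of the 69 rose, ephb4b, and 0 fell, beside 2.77% and 2.07% of all genes called. At an unadjusted p under 0.05 there were 10 of 69, beside 18.8% of all genes. Without the block 0 of 69 were called in either direction by limma, edgeR, DESeq2 or limma-voom, and 0 had an unadjusted p under 0.05 in limma. Their median change was 0.05. In the paired fit, scaling by library totals turned the split to 0 of 69 higher and 7 lower. Under that scaling the median of all genes lay at -0.18.

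ephb4b (ENSDARG00000027112), an Eph receptor gene paralogous to the venous ephb4a, stood at 944, 797 and 1642 in WT and at 1102, 1013 and 2199 in sih. Each sih library was above its WT partner, although the genotypes overlapped because replicate 3 was high in both. The paired change was 0.33 ± 0.09 (interval 0.14 to 0.51, adjusted p = 0.0371). In the same fit the call was lost with a pseudocount of 0.1 (adjusted p = 0.0743) and with scaling by library totals, where the change was 0.15 (adjusted p = 0.327). It was also lost when pair 2 (adjusted p = 0.0800) or pair 3 (adjusted p = 0.309) was left out, but not pair 1 (0.38, adjusted p = 0.00716). ephb4a, the venous receptor of Efnb2, was at 999, 573 and 856 in WT and at 1276, 612 and 892 in sih. Its paired change was 0.17 ± 0.10 (interval -0.03 to 0.37). In the other direction efnb3a had the lowest value of the ephrin and Eph group, -0.33 ± 0.13 (adjusted p = 0.167).

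Other steps of the pathway held no called gene. The genes named here are those with the highest and lowest value in a role among genes whose mean reached 50. In the nuclear complex, with 7 other genes, maml3, which encodes a Mastermind coactivator, was at 0.21 ± 0.12 and kat2a at -0.03 ± 0.17. Among 6 corepressor genes ctbp2a was at 0.16 ± 0.09 and spen at -0.19 ± 0.14. Of 14 other Hes and Hey family genes, her15.1 was at 0.23 ± 0.14 and her4.2 at -0.51 ± 0.19 (adjusted p = 0.139). The latter is a copy of a repeated gene whose reads may not be assigned with certainty. The feedback genes nrarpa and nrarpb were at 0.05 ± 0.09 and -0.22 ± 0.19.

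Of 11 genes of receptor cleavage, the metalloprotease genes adam10b (0.29 ± 0.10, adjusted p = 0.0894) and adam17a (-0.26 ± 0.11, adjusted p = 0.209) marked the ends of that range. Among 4 glycosyltransferase genes, pofut1, which adds fucose to Notch, was at 0.05 ± 0.10 and poglut1, which adds glucose, at -0.28 ± 0.13. Of 8 genes of ubiquitination and trafficking, neurl1ab was at 0.26 ± 0.15 and dtx2 at 0.05 ± 0.13. The plot of the pathway by role shows these values. By role, the medians of the genes other than members ran from -0.13 for the glycosyltransferases to 0.18 for ubiquitination and trafficking. In the latter role 7 of 8 genes were above 0.

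**Figure D3:**
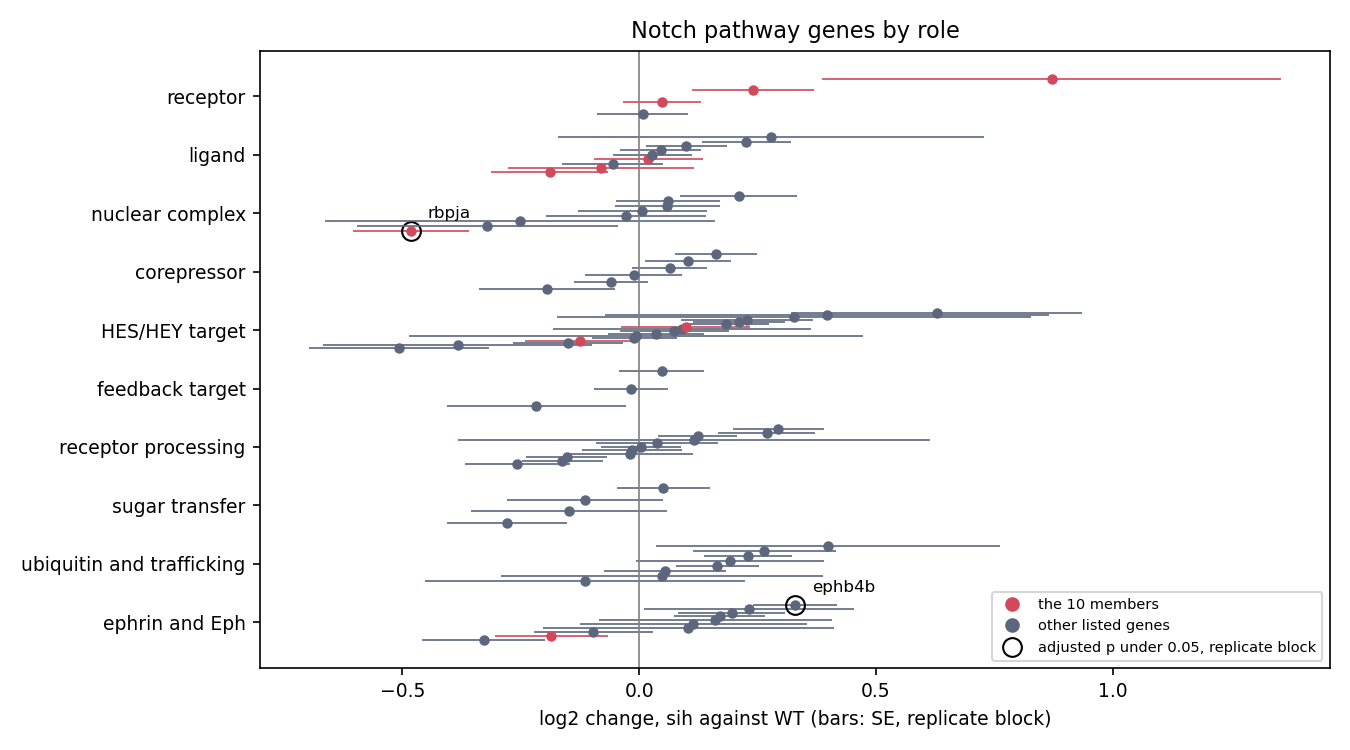
Log2 change of sih against WT for 79 Notch pathway genes, by role, with the SE of the paired limma fit as bars. The 10 members are red, and rings mark the 2 genes called, rbpja at -0.48 and ephb4b at 0.33.

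Marker lists of cells that could carry these transcripts were read in the same paired fit. Among all genes 2.77% were called as higher and 2.07% as lower in sih. Of 7 tested arterial genes, cldn5b (0.44 ± 0.10) and cxcr4a (0.41 ± 0.10) were called as higher and 0 as lower. At an unadjusted p under 0.05 in that limma fit, 2 arterial genes were higher and 2 lower. Of 10 pan-endothelial genes none was called. Of 7 venous genes, which include ephb4a of the pathway list, mrc1a fell (-0.84 ± 0.15) and 0 rose. At an unadjusted p under 0.05 in that fit, 3 venous genes were lower and 0 higher, and 2 pan-endothelial genes were higher and 1 lower. Among all genes 18.8% had such a p. The arterial list summed to between 3572 and 4225 normalised counts in WT and between 4030 and 4434 in sih (4029.7 at the lowest). The pan-endothelial list summed to 3031 to 3858 in WT and 3215 to 3757 in sih, and the venous list to 7158 to 9171 and 6524 to 8574. The sums of these 3 lists overlapped between genotypes.

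Of 7 mural genes, 11 neural tube genes, 12 genes of the tail bud and presomitic mesoderm and 5 of the notochord and floor plate, none was called. The neural sum ran from 12412 to 15410 in WT and from 14021 to 15868 in sih, and the tail bud sum from 850.0 to 1187 and from 960 to 1166 (959.7 at the lowest). The tail bud list shares dlc with the members and her1 and her7 with the pathway list, so its sum is not separate from them. dlc stood at 431 in WT replicate 1 and 466 in sih replicate 1, the libraries with the lowest tail bud sums. The mural sum ran from 542 to 784 and from 526 to 969, and that of the notochord and floor plate from 93801 to 126819 and from 107474 to 141869. In replicate 1 most of the latter sum was col2a1a, at 90811 of 93801 in WT and 124243 of 127750 in sih. ascl1b of the neural list and mespab of the tail bud list were at or near 0 and were not tested. Of 6 pronephros genes the phosphate transporter gene slc20a1a rose (0.68 ± 0.13), and the list summed to 6018 to 10375 in WT and 6609 to 10821 in sih. The erythrocyte list moved most, with 7 of 8 genes higher, among them hbae3, hbbe3, hbbe2, alas2, slc4a1a, gata1a and urod. Its sum was 24379 to 33696 in WT and 107308 to 147175 in sih. The part of these cells in the values of the Notch genes was not tested.

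The number of the replicate accounted for more of the members' variation than the genotype did, with 1 exception. For rbpja, genotype took 53.7% of the sum of squares of log2(value + 1) over the 6 libraries and replicate number 34.9%. In the other 9 members the number took over 50%, from 55.5% in dll4 to 98.7% in notch1b, which was the case for 78.2% of all genes. Genotype took 14.9% in dlc and less in the other 8. In dll4 the remainder, which holds the disagreement between pairs, was 43.2%. The medians over all genes were 79.8% for the number and 6.12% for genotype. These shares are not corrected for degrees of freedom, of which the number takes more than genotype, so noise alone would give the number the larger share.

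**Figure D4:**
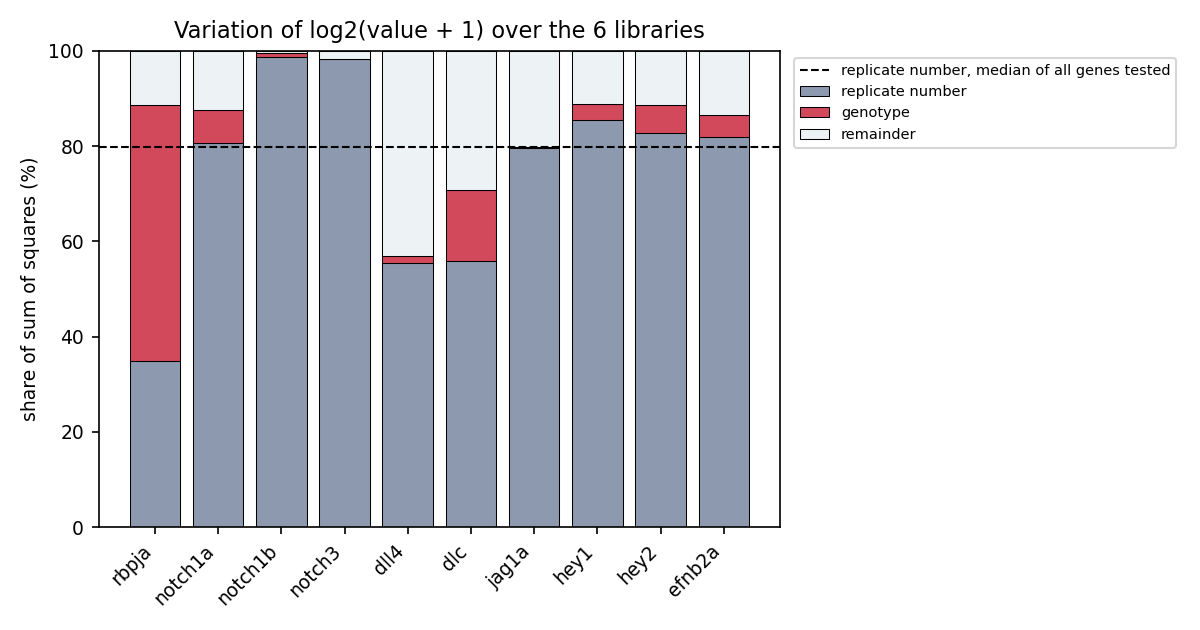
Share (%) of the sum of squares of log2(value + 1) over 6 libraries that went with replicate number, genotype and the remainder, for each member. The dashed line is the median share of replicate number over all genes tested, 79.8%, and genotype is the largest part in rbpja, at 53.7%.

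A limma F test of the replicate number, with genotype as covariate, called 8 of 10 members, all but dll4 and hey2, beside 59.1% of all genes. The 8 had higher values on average in replicate 1 than in replicates 2 and 3, beside 7030 of the 13473 called over all genes. In WT alone, replicate 1 held 0.967 times the mean of replicates 2 and 3 for dlc and 1.04 times for rbpja. Both libraries of replicate 1 lay above the other 4 in 5 members, against 28.0% of all genes, and below them in 1 member, hey2, against 23.4%. The widest gap in a well-covered member was that of notch1b (adjusted p = 5.23e-11). Replicate 1 held 6.35 times the mean of replicates 2 and 3 in WT and 8.35 times in sih. For notch3 the same ratios were 1.98 and 2.42 (adjusted p = 1.93e-08), and for efnb2a they were 1.37 and 1.99 (adjusted p = 7.08e-05). On the log2 scale the gap of notch1b was 2.87, and 97 of 13248 genes whose mean reached 50, notch1b included, had a gap at least as high.

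Of the 69 other genes of the list, 54 were called for the replicate number, and 36 of these were higher in replicate 1 than in replicates 2 and 3. Over all genes 7030 of the 13473 called were higher there. Of the 10 Hes and Hey family genes called, 2 were higher in replicate 1. The ephrin gene efnb3b and the coactivator gene ep300b, chosen after their values were seen, stood out. ep300b was at 1393, 197 and 338 in WT and at 1391, 186 and 405 in sih. efnb3b was at 146.7, 9.08 and 7.86 in WT and at 197, 6.48 and 10.0 in sih. In both, replicate 1 was further from the other numbers than the WT and sih libraries of a number were from each other. For replicate 1 against replicates 2 and 3, the median on the log2 scale was 0.04 for all genes and 0.44 for the members. Of the marker lists, the median was 0.71 for mural, 0.69 for pan-endothelial, 0.63 for pronephros, 0.31 for venous and 0.12 for erythrocyte genes. It was -0.03 for neural tube, -0.26 for notochord and floor plate, -0.38 for arterial and -0.63 for tail bud and presomitic mesoderm genes. Of the 6 arterial genes called for the number, 3 were higher in replicate 1. What a number stands for is not in the labels, and the part of stage, dissection or RNA quality was not tested.

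**Figure D5:**
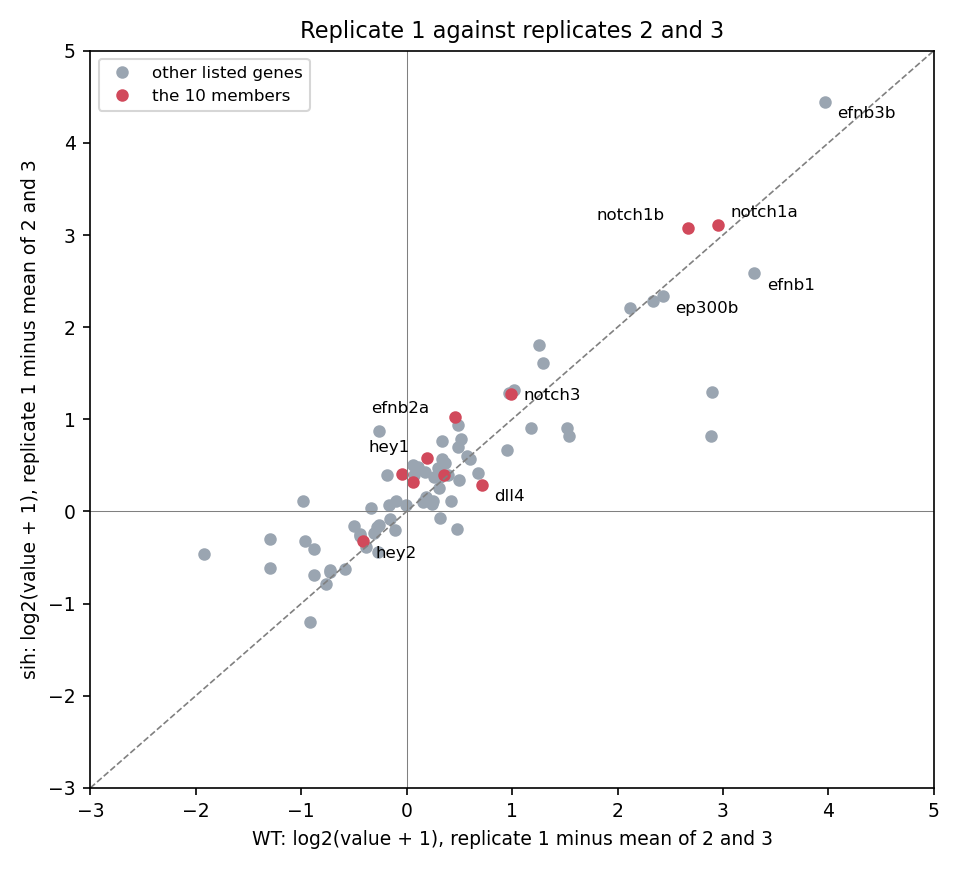
Log2(value + 1) of replicate 1 minus the mean of replicates 2 and 3, in WT (horizontal) and in sih (vertical), for the 79 Notch pathway genes, with the 10 members in red and equality dashed. notch1b lies at 2.67 in WT and 3.07 in sih, and hey2 is on the opposite side at -0.42 and -0.32.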

How the data were processed

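Poly(A) RNA of tails was sequenced in 3 WT and 3 sih libraries. The authors deposited 1 table of normalised counts, a signal scale in which gene counts of a library share 1 divisor. Every value above 0 (100%) was a whole multiple of the value of 1 read within 1e-06, which gave whole reads. The submitters' processing notes name Zv9, TopHat, edgeR 3.0.8 and HTSeq 0.5.3p5 but not their use. For annotation, strand setting and scaling, the method is not given in the sources used here.

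limma 3.58.1 (R 4.3.3), with a mean-variance trend, was fitted to log2(value + 1), two-sided, over the 22813 genes whose mean reached 1 in WT or sih. Such changes understate those of genes with few reads. Libraries of the same number correlated above 0.1 in every pair (0.932, 0.884 and 0.852 over 13248 genes), so the fit with the number as a block stands beside the unblocked one. Correlations between different numbers ran from -0.730 to 0.136. The highest of these, for WT replicate 3 and sih replicate 2, also passed 0.1, so that bound alone does not set pairs apart. The labels are silent on pairing, which rests on these correlations. The named genes were the members, their paralogs, ephb4a, called genes of the lists, the steepest value in each direction per role with a mean of at least 50, and the 3 genes most like rbpja. Members and lists were chosen with earlier results of these data known. Of 95 pathway names 79 were matched by name or identifier. Alternatives on the recovered reads used edgeR 4.0.16, DESeq2 1.42.0 and limma-voom. The fits were also run on simulated counts that had the differences between replicate numbers built in. That run cannot show whether pairing by number holds, or how genes with few reads fare.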

Additional observations from a re-analysis of the deposited data

How the results depend on the processing

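Without the block, 0 genes, 0 members and 0 other pathway genes were called under every alternative tried, leaving out each library included, except that DESeq2 called 48 genes, none of them on either list. With the replicate block 1105 genes were called. The count was 410 with a pseudocount of 0.1, 912 without a filter, 1436 with a filter of 1 CPM in 3 libraries, 1106 with TMM, 1439 with relative log expression, 1298 with upper quartile, 1799 with edgeR, 986 with DESeq2 and 1353 with limma-voom. With library totals it was 2265, of which 184 were higher and 2081 lower, against 632 and 473 with the deposited scaling. Leaving out pair 1, 2 or 3 gave 1248, 1482 and 506. With the block 1 member, rbpja, was called under each of these settings except the pseudocount of 0.1 (0 members). 1 other pathway gene, ephb4b, was called, except with that pseudocount (0) and with library totals, where 7 others were. Leaving out pair 1, 2 or 3 gave 2, 2 and 0 members and 2, 1 and 0 pathway genes. The change of rbpja kept its sign in all 30 alternatives, from -0.67 to -0.27.

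Of 296 values over the 10 members and all alternatives, 28 had the opposite sign, all outside rbpja and none of them called. With library totals, with or without the block, notch3 was at -0.14, jag1a at -0.16 and hey2 at -0.085. Leaving out 1 library, without the block, gave -0.17 to 1.96 for notch1a, -0.78 to 1.13 for notch1b, -0.38 to 0.38 for notch3, -0.26 to 0.16 for dll4, -0.32 to 0.025 for dlc, -0.16 to 0.14 for jag1a, -0.32 to 0.17 for hey1, -0.040 to 0.21 for hey2, -0.53 to 0.14 for efnb2a, -0.022 to 0.64 for ephb4b and -0.59 to -0.27 for rbpja. In the replicate block fit, notch3 was at -0.049 and dll4 at 0.059 when pair 1 was left out. When pair 3 was left out, dll4 was at 0.10, jag1a at -0.097, hey1 at 0.022 and efnb2a at 0.010. For the replicate number, DESeq2 called 5 members, and leaving out a library gave 4 to 9 members and 8355 to 13922 genes. The cause of these differences was not tested. notch1a held 2 to 4 reads in 3 libraries under an identifier absent from the reference table of names, and why its reads are few was not tested.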
